A study of Mus musculus with 6 samples.

Results

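Cluster 1 was a group of haematopoietic stem cells (HSCs) that the authors had separated from 10 other groups by its expression profile, and its members were taken as the cells behind the authors' comparison of cluster 1 with all other cells. It held 3955 of 22378 cells (17.7%), and the remaining 18423 cells were the reference for every fold below. The size of that reference was read from the deposited p-values of 18 genes seen in 1 of its cells. The total came from the same reading in all 11 comparisons, and the size of cluster 1 is the difference. All donor mice carried Gfp-Lc3, a fluorescent reporter fused to the autophagosome protein LC3, and their sorted bone marrow HSCs went into droplet-based sequencing of RNA from single cells. A young and an old mouse were used for each of 3 feeding conditions, which gave 6 libraries: food freely available, a fast of 24 hours, or a fast of 24 hours followed by refeeding for 24 hours. Each library came from 1 mouse, and the deposited values were pooled over all 6. The split of cluster 1 over age and feeding was therefore not analysed here, and no value below carries an error between animals.

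HSCs are largely dormant cells that can rebuild all blood lineages, and a low rate of protein synthesis is a known feature of theirs. Ribosomes are built in the nucleolus, where RNA polymerase I makes ribosomal RNA, processing factors and small nucleolar ribonucleoproteins trim and modify it, and ribosomal proteins are added. The transcription factor MYC drives many of the genes for these steps, whereas the mRNAs of ribosomal proteins are also controlled at translation, through a run of pyrimidines at their 5′ end. VLDLR is a membrane receptor that takes up triglyceride-rich lipoproteins and also binds reelin.

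The working description of cluster 1, low nucleolar genes with Vldlr, was checked first. Of 60 genes for nucleolar rRNA processing, 57 had a deposited log2 fold below 0, with a median of -0.15. The folds were small: the lowest value among members at or above the median level of all genes was -0.40, for Nop56. Vldlr had a log2 fold of 0.70 in cluster 1 in the authors' deposited table, but it was also high in cluster 0 (0.52) and cluster 5 (0.91), so a high Vldlr level was shared by 3 of the 6 large clusters. All 12 markers of long-term HSCs had counts in cluster 1, at rebuilt levels of 0.199 to 4.64 counts per 10000. Only 297 of the 17055 genes with a count had none in cluster 1, so a count alone does not identify the cells. By the deposited adjusted p 2 of the 12 markers were higher and 6 lower, with a median log2 fold of -0.08. A rebuilt level is the mean count per 10000 counts of a cell, worked out from the deposited mean, the fold and the cluster's share of cells. Clusters had been defined on these same expression values, so a fold of cluster 1 against the rest describes the cluster and is no test of it.

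Library totals were not analysed here. The depth equivalent of a cluster, estimated from how many genes it left undetected, was 10538 counts per cell in cluster 1, against 11111 to 15555 in clusters 0 and 2 to 5. The median log2 fold of cluster 1 was -0.06 over all genes and -0.05 over the 8528 genes at or above the median log2 mean level of -3.36, called better-detected genes here. Of those better-detected genes 68.9% lay below 0. Markers of other blood and marrow cells had summed levels close to those of the rest and did not mark the cluster. The summed rebuilt levels in cluster 1 and in the rest were 0.413 and 0.408 for B cell markers, 0.403 and 0.471 for T and NK cell markers, and 0.233 and 0.239 for neutrophil markers. They were 2.92 and 2.72 for monocyte and macrophage markers, 2.08 and 2.35 for mast cell and basophil markers and 2.80 and 3.01 for erythroid cell markers. Stromal markers summed to 0.109 and 0.121 and junction and endothelial markers to 5.50 and 5.75. Pax5 and Cdh5, defining genes of B cells and of endothelium, had no count in cluster 1. Most other members of these lists did: 8 of 9 measured B cell markers and 13 of 14 junction and endothelial markers had a count there. Lyz2 alone made up most of the monocyte sum, and Kit most of the mast cell sum. Doublet treatment is not given in the sources, and the part of other cells in the results was not tested.

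To be called, a gene needed a log2 fold of 0.5 or more in size together with an adjusted p under 0.05, both as deposited; that p comes from a test over cells. Cluster 1 had 21 genes called higher (0.123% of the 17055 genes with a count) and 410 called lower (2.4%). Of the 410 lower genes 143 had no count at all in cluster 1, and only 3 belonged to the better-detected genes: Gm26917 (-0.58), Igf2bp2 (-0.55) and Kcnq1ot1 (-0.53) in the authors' deposited table. By the deposited adjusted p alone, 632 genes were higher (3.71%) and 2908 lower (17.1%), and 2258 of the 2908 were better-detected genes. Among the 8528 better-detected genes alone 6.86% were higher and 26.5% lower, the shares that counts in lists of mostly better-detected genes are to be read against. Among better-detected genes cluster 1 thus had few large differences and many small negative ones. Just inside the fold threshold lay Gm16287 (0.50), Ly96 (0.50) and Cish (0.51), and just outside it Hs3st1 (0.49), Rnd3 (0.47) and H2-Eb1 (0.45). Among the 21 higher genes, 7 had their highest fold of all 11 clusters in cluster 1, and 15 had their highest fold of clusters 0 to 5 there.

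**Figure D1:**
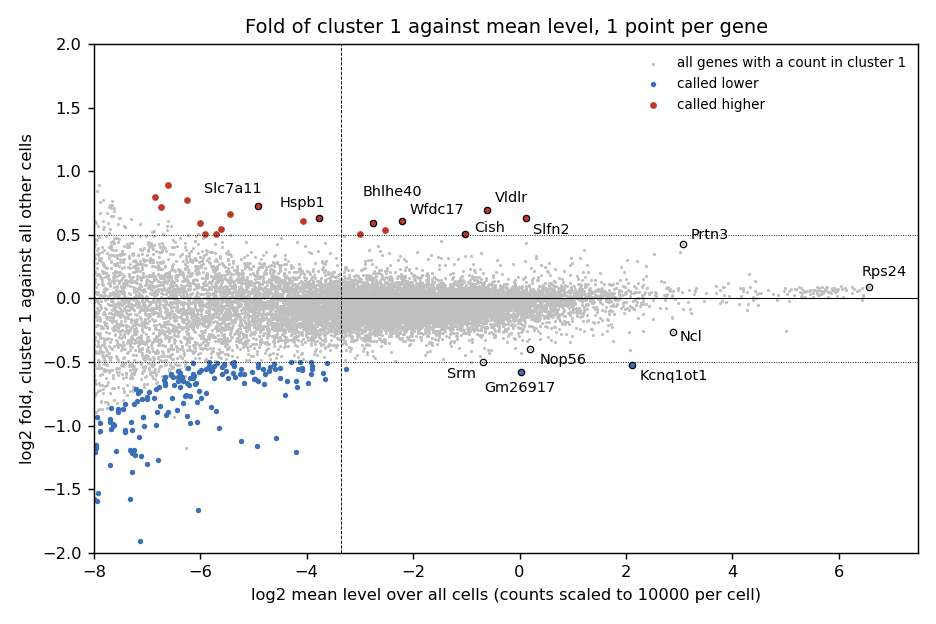
Deposited log2 fold of cluster 1 against the log2 mean level over all cells (counts scaled to 10000 per cell), 1 point per gene; red and blue points are genes called higher and lower, dotted lines mark folds of 0.5 and -0.5 and the dashed line the median level of -3.36. Inside the axes fall 13686 genes with a count in cluster 1. Most called genes lie to the left of the median level, and the ribosomal protein genes form the group at the far right just above 0.

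Vldlr was 1 of the 7 better-detected genes called higher. The rebuilt level of Vldlr was 0.961 counts per 10000 in cluster 1 and 0.592 in the rest, 1.62-fold higher. In clusters 0, 2, 3, 4 and 5 the rebuilt levels of Vldlr were 0.862, 0.344, 0.325, 0.686 and 1.18. Clusters 0, 1 and 5 were thus the high group and clusters 2 and 3 the low group, with cluster 4 between them. The gene lies on the forward strand of chromosome 19 at 27216484 to 27254231 (GRCm38, the mm10 assembly). Among better-detected members of the list for lipoprotein receptors and lipid uptake, Lrp6, a WNT co-receptor of the same family, was at -0.24 in the authors' deposited table. The adaptor gene Dab2, which links such receptors to endocytosis, had a fold of 0.79 at a low level that did not pass the adjusted p. Of 28 listed genes 27 were measured and 26 had a count in cluster 1; 3 were higher and 5 lower by the adjusted p, and the median was -0.05, close to that of all better-detected genes.

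Slc7a11, the light chain of the cystine and glutamate exchanger, had a deposited log2 fold of 0.73, higher than in any other of clusters 0 to 5, where it ranged from -0.36 to -0.18. Its rebuilt level was low, 0.0493 counts per 10000 in cluster 1 and 0.0298 in the rest. Slc7a11 (chromosome 3, 49892526 to 50443614, reverse strand) and Vldlr are known targets of ATF4, the transcription factor of the amino acid and integrated stress response. ATF4 binds composite CARE elements, searched here as TGATGNAA on both strands of the 300 bases from 250 before to 50 after a RefSeq transcript start (GRCm38.p6). That motif is in 3.97% of 32851 such promoters, counted per transcript start. A gene below was counted as holding a motif if any of its starts did. No share over all genes was computed for this motif or those given later, so no enrichment is read from these counts. Of the 21 higher genes 15 had a promoter entry, and 3 of the 15 held the motif: Slc7a11, Vldlr and Clec4b1. The stretches with the matches in the first of these, 120 bases before the start at chr3:50443614-50443733 on the reverse strand, and in the second, at chr19:27216800-27216879 before the downstream of its 2 listed starts, are shown 5′ to 3′ because these genes are 2 of the 5 markers of the cluster, with the matches in capitals. A match describes the letters only and is not a shown binding site.
Slc7a11: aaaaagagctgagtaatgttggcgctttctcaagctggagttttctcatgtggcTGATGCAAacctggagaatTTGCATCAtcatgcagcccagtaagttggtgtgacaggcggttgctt
Vldlr: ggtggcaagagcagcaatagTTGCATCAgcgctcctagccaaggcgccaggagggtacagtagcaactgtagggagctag

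Most other genes of the ATF4 response did not have high folds. Of 34 listed genes 33 were measured and 32 had a count in cluster 1, with a median log2 fold of -0.08; by the adjusted p 3 were higher and 10 lower. Besides Vldlr and Slc7a11 the third higher gene was Nupr1 (0.25 in the authors' deposited table), a stress-induced chromatin protein. Several amino acid transporters and synthesis enzymes were lower: Slc7a1, the cationic amino acid transporter, had a deposited fold of -0.33, Aldh18a1, which starts proline synthesis, -0.23, Slc1a5, the neutral amino acid transporter, -0.22 and Phgdh, the entry enzyme of serine synthesis, -0.21. Slc7a5, the large neutral amino acid transporter, was called lower at -0.70, at a level under the median. Atf4 itself was at -0.05 and Asns, asparagine synthetase, at -0.08, and neither passed the adjusted p. The 19 measured aminoacyl-tRNA synthetases, which charge tRNAs with amino acids and include ATF4 targets, had 18 values below 0 (median -0.13) and 12 lower by the adjusted p, led by Aars (-0.41 in the authors' deposited table).

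Slc7a11 is also a target of NRF2, the regulator of antioxidant genes. Within that list 9 of 28 genes were higher by the adjusted p and 2 lower, with a median of 0.00. Gsta4, a glutathione transferase, had a log2 fold of 0.36, Gclm, the modifier subunit of the rate-limiting enzyme of glutathione synthesis, 0.18, and Gstm1, another glutathione transferase, 0.15 in the authors' deposited table. The ferritin genes Ftl1 (0.12) and Fth1 (0.09) were higher by the adjusted p as well. The pentose phosphate enzymes Tkt (-0.14) and Pgd (-0.12) were the lower members, and Nfe2l2, which encodes NRF2, was at -0.01. The list thus held small differences in either direction around 1 larger value, that of Slc7a11.

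Slfn2, a schlafen family protein needed for the quiescence of T cells, had a log2 fold of 0.64 (chromosome 11, 83065112 to 83070678). Its rebuilt level was 1.53 counts per 10000 in cluster 1 and 0.987 in the rest. Cluster 2 stood higher for Slfn2 at 2.15, cluster 5 was close at 1.31, and clusters 0, 3 and 4 were lower at 0.459, 0.751 and 0.926. The remaining schlafen genes were sparse: of the 7 measured only Slfn2 passed, while Slfn1 had a deposited fold of 0.68 at a low level and Slfn5 and Slfn8, which were better detected, had 0.09 and -0.05.

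Cish, a STAT5-induced feedback inhibitor of cytokine receptors, had a log2 fold of 0.51 (chromosome 9, 107296026 to 107302784). It resembled Slfn2 in its order across clusters: cluster 2 was higher (1.03) and cluster 0 lower (-0.94) in the authors' deposited tables. Other cytokine-induced genes of the same list were higher by the adjusted p: Socs3 (0.31), the kinase genes Pim1 (0.26) and Pim2 (0.20), and Socs1 (0.23). Among the signal transducers and receptors, Stat5a, Jak2 and Kit, the stem cell factor receptor, were each at -0.18 in the authors' deposited table. Over the 32 genes, 5 were higher and 8 lower by the adjusted p and the median was -0.07; the lower share is near that of all better-detected genes (26.5%). The STAT motif TTCNNNGAA, the same on either strand, was in 8.3% of the promoters, and among the 15 higher genes with an entry Cish and Slc7a11 held it. Around the start of Cish (chr9:107296654-107296683, forward strand) it occurred 2 times within 30 bases, in capitals here.
Cish: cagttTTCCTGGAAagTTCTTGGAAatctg

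Hspb1, a small heat shock protein, had a log2 fold of 0.63 at rebuilt levels of 0.104 counts per 10000 in cluster 1 and 0.0668 in the rest (chromosome 5, 135887919 to 135889563). Cluster 2 was nearly as high for Hspb1 (0.101) and cluster 0 far lower (0.0335). The heat shock list of 24 genes had 4 members higher and 4 lower by the adjusted p and a median of -0.02. Its higher members beside Hspb1 were small: Hspa8 (0.09), Dnaja1 (0.06) and Hsp90ab1 (0.06), cytosolic chaperones, in the authors' deposited table. The lower ones were Hspa9 (-0.23) and Hspd1 (-0.12), mitochondrial chaperones, with Hsph1 (-0.19) and Hspa4 (-0.19). A motif for heat shock factor, searched as GAANNTTC, which reads the same on either strand, was in 7.86% of promoters and in 5 of the 15 higher genes with an entry. The stretch before the start of Hspb1 (chr5:135887769-135887868, forward strand) held 2 matches, in capitals, and is shown as that of a marker of the cluster.
Hspb1: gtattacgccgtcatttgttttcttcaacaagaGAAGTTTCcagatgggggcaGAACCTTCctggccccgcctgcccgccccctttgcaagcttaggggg

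Bhlhe40, a repressor that acts on the circadian clock and in response to hypoxia and cytokines, had a log2 fold of 0.59 (chromosome 6, 108660629 to 108666925) and a rebuilt level of 0.205 counts per 10000 against 0.136 in the rest. Its fold was the highest among clusters 0 to 5, followed by cluster 4 (0.15), and lower than that of cluster 9 (0.93), a cluster of 112 cells. Among the 21 clock genes 1 was higher, Bhlhe40 itself, and 7 were lower by the adjusted p, with a median of -0.12. Tef, a clock output factor, was at -0.34, Nr1d2, a nuclear receptor of the clock, at -0.30, and Cry2, a core repressor, at -0.21 in the authors' deposited table. Per1 (-0.11), Clock (-0.14) and Arntl (0.04) did not pass. The hypoxia list, which also holds Bhlhe40, had 3 of 25 members higher and 6 lower and a median of -0.05.

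The other better-detected higher genes had roles in myeloid cells. Wfdc17, a secreted protease inhibitor-like protein of macrophages, had a fold of 0.61 in cluster 1 and 1.18 in cluster 5. Tgfbi, an extracellular adhesion protein, was at 0.53 in cluster 1 and 0.37 in cluster 5, and below 0.05 in clusters 0, 2, 3 and 4 in the authors' deposited tables. Ly96, which encodes the MD-2 subunit of the endotoxin receptor TLR4, was at 0.50 and had its highest fold of all 11 clusters there. Cd14, the co-receptor that hands endotoxin to MD-2, was at 0.55, at a level under the median. Tlr4 itself was at 0.11 and Myd88, its adaptor, at -0.01, and neither passed. Of the 10 genes of this receptor complex, a list added after the values had been seen, 3 were higher by the adjusted p and none lower.

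The remaining higher genes had low mean levels. Ddit4l (0.72), an inhibitor of mTORC1, Rab44 (0.61), an atypical Rab GTPase, Cd200r4 (0.59), Olfm5 (0.51) and Esco2 (0.89), a cohesin acetyltransferase, were called higher in the authors' deposited table. Adh1, an alcohol and retinol dehydrogenase, and Clec4b1, a C-type lectin of myeloid cells, had the highest folds (1.96 and 2.54). Their rebuilt levels in cluster 1 were 0.00284 and 0.00253 counts per 10000, so these folds rest on very few counted molecules. Gm3716 and Gm8909, which have no proper name, were also called.

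Myeloid genes outside the set called higher held both directions. Prtn3, the granule protease proteinase 3, headed the authors' listing, at a log2 fold of 0.43 and its highest fold of all 11 clusters; it had 10.7 counts per 10000 in cluster 1 and 7.93 in the rest (chromosome 10, 79874476 to 79883174). Within the myeloid priming list Cd53, a leukocyte tetraspanin, was at 0.36, Csf3r, the receptor of granulocyte colony-stimulating factor, at 0.22 and Lyz2, lysozyme, at 0.11 in the authors' deposited table. Plac8, a gene of committed progenitors, was at -0.28. The list had 12 of 18 members above 0, 4 higher and 2 lower by the adjusted p, 1 called lower, and a median of 0.15. Its mean was -0.02, with Fcgr3, an Fc receptor, at -1.62 in the authors' deposited table. Mpo (0.27) and Elane (0.29), the other primary granule genes, were sparse and did not pass.

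Genes for antigen presentation by MHC class II lay on the high side as a group. All 11 of them, a list added after the values had been seen, had folds above 0, with a median of 0.33 against -0.05 for better-detected genes, and 6 were higher by the adjusted p. H2-Eb1, a class II beta chain, was at 0.45, Cd74, the invariant chain, at 0.43, H2-Aa at 0.36, H2-Ab1 at 0.33, and the peptide loading genes H2-DMb1 and H2-DMa at 0.23 and 0.15 in the authors' deposited table. In clusters 0, 2, 3, 4 and 5 Cd74 was at -0.87, 0.46, -0.17, 0.16 and 0.19. H2-Eb1 was at -0.26, -0.15, -0.20, 0.13 and 0.34 in the same clusters, so its highest fold was in cluster 1. The transactivator gene Ciita was at 0.03, at a level under the median. Markers of B cells and of macrophages, which carry these proteins, were at the sums given above, and their part in the class II values was not tested.

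**Figure D2:**
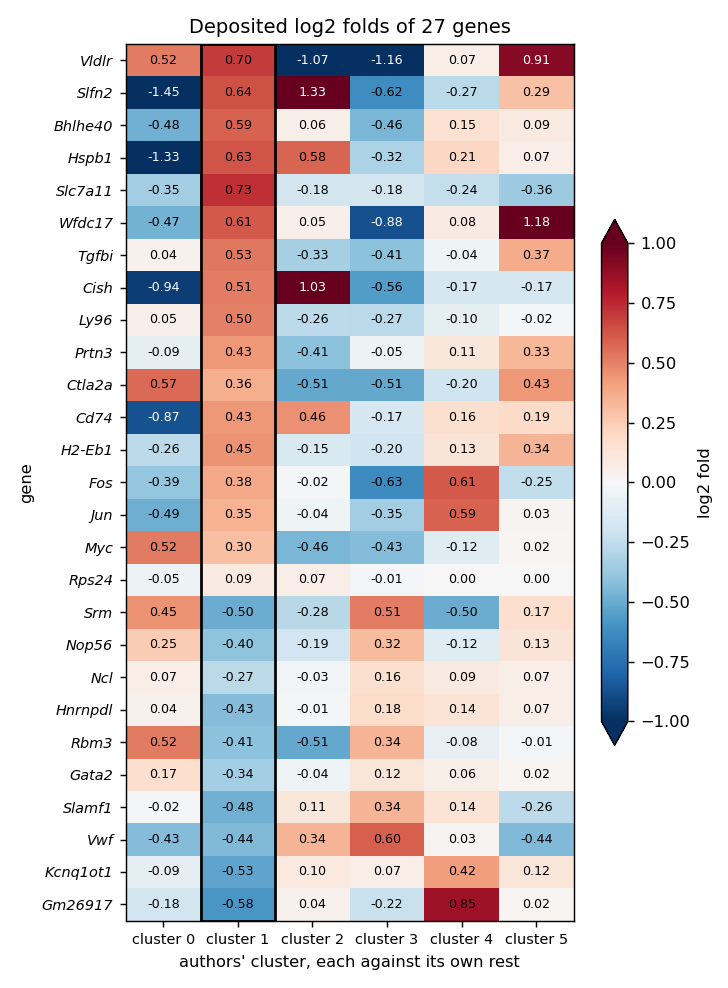
Deposited log2 folds of 27 genes (rows) in clusters 0 to 5 (columns), each cluster against its own rest, with the value printed in each cell and cluster 1 framed; red is higher, blue is lower. Slc7a11, Bhlhe40, Hspb1, Tgfbi, Ly96, Prtn3 and H2-Eb1 have their highest of the 6 values in cluster 1, whereas Vldlr and Wfdc17 are higher in cluster 5 and Slfn2 and Cish in cluster 2.

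Immediate early genes, which are induced within minutes of a stimulus or of cell handling, were moderately higher. Of 30 members 13 were higher by the adjusted p and none lower, none reached the fold threshold, and the median was 0.08. Fos was at 0.38, Jun at 0.35, Junb at 0.30 and Zfp36, an mRNA decay factor, at 0.27 in the authors' deposited table. Egr1 (0.05), Nr4a1 (-0.02) and Dusp6 (0.02) were near 0. Cluster 4 was above cluster 1 for Fos (0.61) and Jun (0.59), and cluster 9 far above for Fos (3.26). Time to dissociation and sorting was not analysed here.

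Myc itself, often counted among the immediate early genes, had a log2 fold of 0.30 in cluster 1 and 0.876 counts per 10000 against 0.712 in the rest. Most of its known targets lay on the other side of 0. Of 30 listed MYC genes 28 had folds below 0, the median was -0.12, and 21 were lower and 2 higher by the adjusted p, the higher ones being Myc and the nucleoside diphosphate kinase gene Nme2 (0.05 in the authors' deposited table). Srm, spermidine synthase, was at -0.50, marginally short of the fold threshold, with 0.467 counts per 10000 against 0.659. Mat2a, which makes S-adenosylmethionine, was at -0.24, Phb, a mitochondrial scaffold, at -0.21, and Odc1, ornithine decarboxylase, at -0.13 in the authors' deposited table. In cluster 0 Myc (0.52) and Srm (0.45) were both high in the authors' deposited table. All 3 pathways named for MYC had lower deposited scores in cluster 1, at folds of -0.05, -0.03 and -0.02, where 62.8% of all 2922 pathways were lower and 9.21% higher.

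Genes for nucleolar rRNA processing were a low group. Of the 60 members 44 were lower by the adjusted p and none higher, where 26.5% of better-detected genes were lower; 59 of the 60 are better-detected genes. Nop56, a core protein of box C/D small nucleolar ribonucleoproteins, was at -0.40 with 0.913 counts per 10000 against 1.20 in the rest. Heatr1 (-0.37), Utp20 (-0.33) and Utp4 (-0.31), parts of the small subunit processome, Mybbp1a (-0.35), a regulator of RNA polymerase I, and Noc3l (-0.33), of large subunit assembly, followed in the authors' deposited table. Nop58, the partner of Nop56, was at -0.30 and Ncl, nucleolin, at -0.27. Rrp12, an export factor of pre-ribosomes, was called lower at -0.55, at a level under the median. Npm1, nucleophosmin, an abundant nucleolar chaperone, was at -0.02. Nop10 (-0.01), a box H/ACA protein, and Imp3 (0.02) and Imp4 (-0.03), of the small subunit processome, were also near 0.

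Across clusters the nucleolar list took either side of 0. For clusters 0, 2, 3, 4 and 5 the median of the nucleolar list was 0.14, -0.09, 0.16, -0.09 and 0.06, and 30 of the 60 genes had their lowest fold of clusters 0 to 5 in cluster 1. Nop56 followed this, at 0.25, -0.19, 0.32, -0.12 and 0.13 in those clusters in the authors' deposited tables. Among 24 genes for RNA polymerases I and III and their factors, 12 were lower and none higher (median -0.13). Polr1a, the largest subunit of RNA polymerase I, was at -0.24, Polr1b, its second-largest subunit, at -0.22 and Ubtf, the ribosomal DNA binding factor, at -0.20. Maf1, the repressor of RNA polymerase III, was at 0.08 in the authors' deposited table and did not pass.

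Transcripts annotated at or near ribosomal RNA repeats were lower as well. Gm26917 was at -0.58, AY036118 at -0.48, Lars2, whose reads include sequence similar to rRNA, at -0.41 and Gm42418 at -0.25 in the authors' deposited table. All 4 had their lowest fold of clusters 0 to 5 in cluster 1, and together they made up 30.2 counts per 10000 in cluster 1 and 36.6 in the rest. Reads of these genes can come from rRNA or its precursors and cannot be told apart from mRNA here, and the list was added after the values had been seen. Gm26917 was high in cluster 4 (0.85), the cluster with the highest depth equivalent of clusters 0 to 5.

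Ribosomal protein mRNAs lay on the other side. Of 81 genes for cytoplasmic ribosomal proteins 73 had folds above 0, 67 were higher and 3 lower by the adjusted p, and the median was 0.06. Together they made up 3875 counts per 10000 in cluster 1 and 3724 in the rest. Rpl21 (0.10), Rps9 (0.09), Rps24 (0.09) and Rps3a1 (0.09) were the highest, and Rpl41 (-0.02) was among the lower ones in the authors' deposited table. In 36 of the 81 genes the highest fold of clusters 0 to 5 was in cluster 1, while the list's median was 0.03, 0.00, 0.01, -0.01 and -0.02 in clusters 0 and 2 to 5. A difference this small can pass a test over this many cells, and a share of 10000 counts also depends on what the other genes take up.

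Other mRNAs with a 5′ terminal oligopyrimidine tract showed similar values, though folds in cluster 1 also rose with mean level. The median log2 mean level of this list was 3.29. All 117 genes at log2 mean levels of 2 to 4 had a median fold of 0.03, and 60.7% of them lay above 0. The part of level in the values of this class was not tested. Of 17 such genes, a list added after the values had been seen, 10 were higher and 3 lower by the adjusted p (median 0.05): Rack1, a ribosomal scaffold protein, was at 0.08, Tpt1 at 0.07 and Eef1a1, the elongation factor that delivers tRNAs, at 0.06, whereas Pabpc1, a poly(A) binding protein, was at -0.09 and Hnrnpa1 at -0.15 in the authors' deposited table. A run of at least 8 C or T in the 30 bases around a RefSeq transcript start was found in 28 of 60 ribosomal protein genes with an entry (46.7%) and in 3760 of all 27025 genes (13.9%). Starts of 2 ribosomal protein genes and 2 other genes of this class are shown as examples, from 15 bases before to 15 after the start. They read 5′ to 3′, with the longest run of C or T in capitals. That run was taken anywhere in the 30 bases, so it need not be the 5′ end of the mRNA. Rps24 is at chr14:24490663-24490692 (forward, the start with the longer run of its 2) and Fau at chr19:6057932-6057961 (forward). Rack1 is at chr11:48800345-48800374 (forward) and Eef1a1 at chr9:78481710-78481739 (reverse).
Rps24: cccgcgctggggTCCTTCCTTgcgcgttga
Fau: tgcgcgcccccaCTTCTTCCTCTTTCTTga
Rack1: cggaggccgCTCTTTCTTTTTCTCCacagg
Eef1a1: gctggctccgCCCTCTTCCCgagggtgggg

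Translation factors held both directions. Of 34 initiation and elongation factors 5 were higher and 16 lower by the adjusted p, and all 16 lower ones act in initiation or its control. Eif4g1, the scaffold of the cap-binding complex, was at -0.34, Eif3a and Eif3b, core subunits of eIF3, were both at -0.24, and Eif2s3x, a subunit of the factor that brings the initiator tRNA, was at -0.21 in the authors' deposited table. The 5 higher members were Eef1d (0.09), Eif1 (0.07), Eef1b2 (0.06), Eef1a1 (0.06) and Eef2 (0.05), of which 4 are elongation factors. The groups for making ribosomes and for being part of them thus stood on opposite sides of 0 in cluster 1, at median folds of -0.15 and 0.06.

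**Figure D3:**
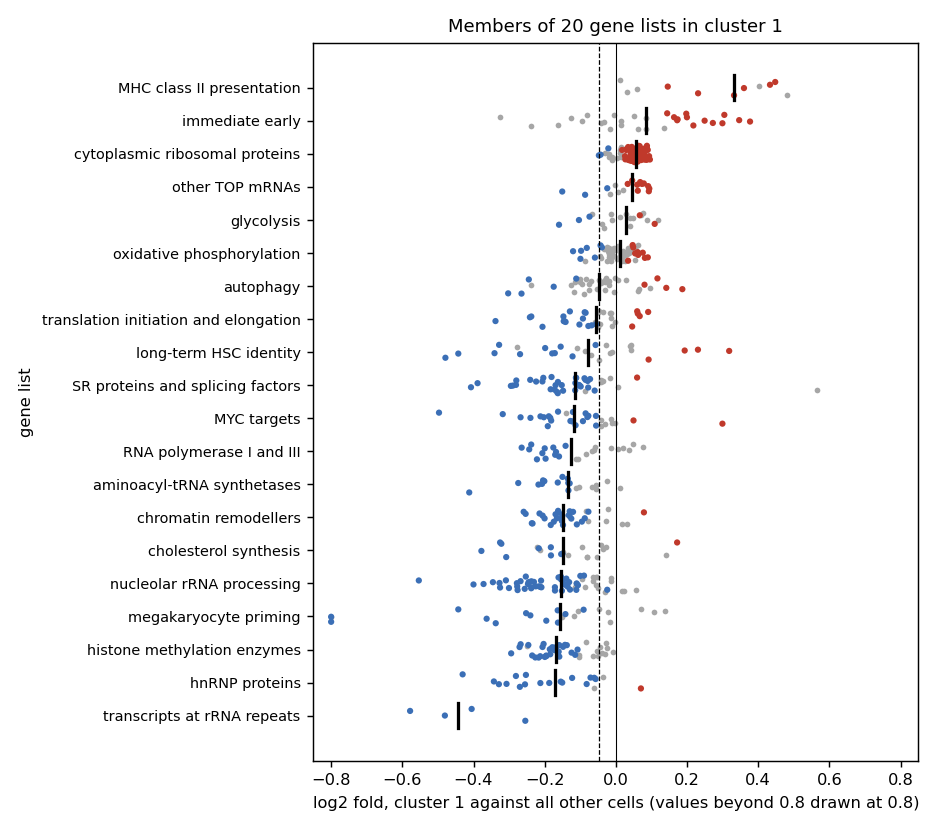
Deposited log2 folds of cluster 1 for the members of 20 gene lists, 1 point per gene with a count, points spread vertically for legibility; red and blue points passed the deposited adjusted p, grey points did not, black bars are list medians and the dashed line is the median of better-detected genes (-0.05). MHC class II, immediate early and ribosomal protein genes lie to the right of 0, and nucleolar, hnRNP, histone methylation and chromatin remodelling genes to the left.

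Genes for RNA processing were a further low group. These lists were added after the values had been seen. Of 20 hnRNP genes, whose proteins bind nascent RNA, 19 had folds below 0 (median -0.17), 17 were lower and 1 higher by the adjusted p, and 14 had their lowest fold of clusters 0 to 5 in cluster 1. Hnrnpdl (-0.43), Hnrnpd (-0.34), Hnrnpr (-0.33) and Hnrnpa2b1 (-0.25) were low, and Hnrnpc (0.07) was the exception in the authors' deposited table. Among 40 SR proteins and other splicing factors 32 were lower and 1 higher, with a median of -0.11, and 31 had their lowest fold of clusters 0 to 5 there. Tardbp, which encodes TDP-43, was at -0.39, Pnn, a nuclear speckle protein, at -0.30, and Sfpq, a paraspeckle protein, at -0.24 in the authors' deposited table. Rbm3, a cold-induced RNA binding protein, was at -0.41 in cluster 1 and -0.51 in cluster 2, and at 0.52 in cluster 0.

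Chromatin regulators gave similar values. None of 43 enzymes that add or remove histone methyl groups had a fold above 0; the range was -0.29 to -0.01, the median -0.17, and 30 were lower by the adjusted p. Setdb1, an H3K9 methyltransferase, was at -0.29, Dot1l, an H3K79 methyltransferase, at -0.27, Kdm6a, an H3K27 demethylase, at -0.24, and Setd2, an H3K36 methyltransferase, at -0.20 in the authors' deposited table. Kmt2a, the MLL1 gene that maintains HSCs, was at -0.02. Of 33 chromatin remodellers 26 were lower and 1 higher (median -0.15), with Ino80 at -0.26, Atrx at -0.25 and Smarcc1, a BAF subunit, at -0.24 in the authors' deposited table. Set, a histone chaperone, was at -0.26 with 3.56 counts per 10000 against 4.28 in the rest.

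Kcnq1ot1, an imprinted nuclear long non-coding RNA that silences neighbouring genes, was the most abundant gene called lower. It was at -0.53 in cluster 1 (chromosome 7, 143203458 to 143296549), with 3.19 counts per 10000 against 4.60 in the rest. The other large clusters stood at -0.09, 0.10, 0.07, 0.42 and 0.12 for Kcnq1ot1 in the order 0, 2, 3, 4 and 5 in the authors' deposited tables. Igf2bp2, an RNA binding protein that stabilises growth-related mRNAs, was at -0.55 in cluster 1, -1.71 in cluster 0 and 1.76 in cluster 2. Of 12 nuclear long non-coding RNAs 1 was higher and 3 lower by the adjusted p, and of 18 imprinted HSC genes 2 were higher and 5 lower.

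Folds in cluster 1 also varied with transcript length. The 8255 better-detected protein-coding genes with an annotated length were put in 10 classes of about equal size by their longest GENCODE M21 transcript. The median fold was 0.02 in the shortest class (204 to 1377 bases), where 36.1% of genes lay below 0, and -0.13 in the longest (6882 to 123179 bases), where 92.8% did. Every step from a shorter to a longer class lowered the median in cluster 1. The difference between the longest and the shortest class was -0.15 in cluster 1, and -0.11, 0.09, -0.05, 0.21 and 0.02 in clusters 0, 2, 3, 4 and 5. Across the 8255 genes, which are not independent replicates and share the same cells, Spearman's rho between length and fold was -0.46 in cluster 1 and 0.55 in cluster 4. Clusters 1 and 4 had the lowest and the highest depth equivalent of the 6, at 10538 and 15555 counts per cell. Clusters 0, 2, 3 and 5 were at 13041, 12326, 13183 and 11111, and their length differences did not follow that order. Of the small clusters, cluster 6 was at 9651 with a length difference of -0.43, and cluster 7 at 9579 with 0.78. The part of depth or of RNA quality in the length relation was not tested.

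**Figure D4:**
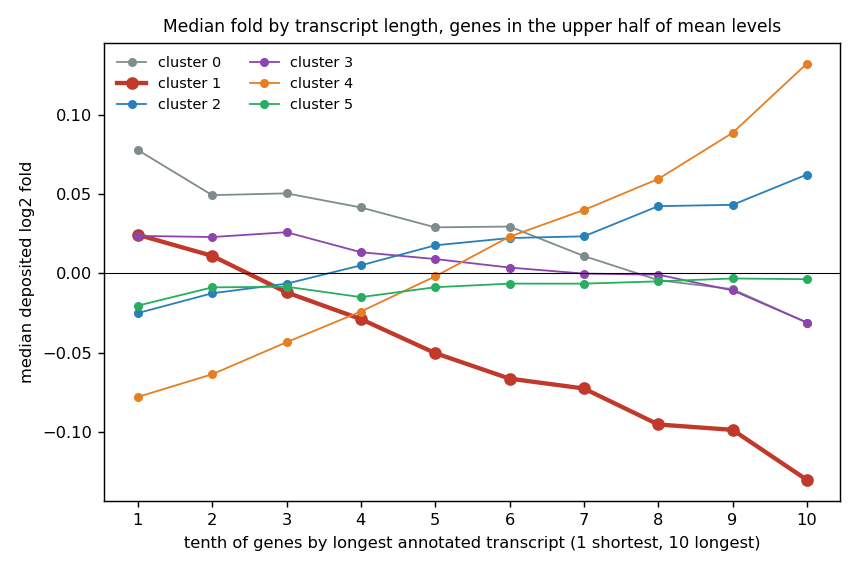
Median deposited log2 fold (vertical axis) of 8255 better-detected protein-coding genes in 10 classes by longest annotated transcript (horizontal axis, shortest to longest), 1 line per cluster for clusters 0 to 5. The line of cluster 1 goes from 0.02 down to -0.13, and that of cluster 4 runs the other way.

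List medians can be set beside the median of the length class that holds their median length. Nucleolar genes had a median length of 2998 bases and a median fold of -0.15, in a length class at -0.05. Aminoacyl-tRNA synthetases (3066 bases, -0.13) belonged to the same class, and hnRNP genes (-0.17) to one at -0.07. Histone methylation enzymes, with a median length of 6449 bases, were at -0.17 in a class at -0.10. Chromatin remodellers (7441 bases) were at -0.15 in a class at -0.13, so their value was near that of other genes of their length. Ribosomal protein genes (1059 bases) were at 0.06 in a class at 0.02, and MHC class II genes (1669 bases) at 0.33 in a class at 0.01.

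Stem cell genes did not give 1 direction. Of 26 genes of long-term HSC identity 4 were higher and 11 lower by the adjusted p, with a median of -0.08. Ly6a, which encodes the stem cell antigen SCA-1, was at 0.32 and Procr, which encodes EPCR, a receptor often used to sort HSCs, at 0.23 in the authors' deposited table. Slamf1, which encodes CD150, likewise often used for sorting, was at -0.48 with 0.278 counts per 10000 against 0.388 in the rest. Gata2 (-0.34), Erg (-0.27), Tal1 (-0.20) and Meis1 (-0.17), transcription factors of stem cells, were lower, while Mllt3 (-0.01) and Hoxb5 (-0.11) did not pass. Among the 12 marker genes of long-term HSCs 2 were higher and 6 lower by the adjusted p and none was called.

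Of 22 megakaryocyte genes with a count, 12 were lower, none was higher and 10 did not pass the adjusted p, with a median of -0.16; 26.5% of better-detected genes were lower, and 14 of the 22 were better detected. Vwf, the von Willebrand factor gene, was at -0.44, and the platelet glycoprotein genes Gp9 and Itga2b at -0.36 and -0.34 in the authors' deposited table. Vwf was as low in cluster 0 (-0.43) and cluster 5 (-0.44) and high in cluster 3 (0.60), although the list's median was 0.49 in cluster 0. Of 22 erythroid genes 8 were lower and 1 higher, with 5 called lower (median -0.27), most of them sparse: Epor, the erythropoietin receptor, was at -0.76 and Aqp1 at -0.66 in the authors' deposited table. Haemoglobin genes, which can reach HSCs as free RNA, ranged from -0.22 (Hbb-bs) to 0.13 (Hbb-bt) and none passed. Of 19 measured lymphoid genes 5 were lower and none higher by the adjusted p, with 2 called lower. Of the 19 genes 16 had a count in cluster 1, and 5 of those 16 were better detected. Over all genes with a count 17.1% were lower and 3.71% higher.

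Cell cycle genes of G1 and S phase were more on the low side. Of 20 G1 kinases, cyclins and their inhibitors 8 were lower and 3 higher by the adjusted p (median -0.12). Among them Ccnd2 (-0.25) and Ccnd1 (-0.20), the D cyclins, were lower, and Cdkn1a, which encodes p21, was higher (0.29) at a level under the median in the authors' deposited table. S phase genes had a median of -0.11 with 10 of 25 lower and 1 higher. Of 25 G2M phase genes only 2 were lower and none higher, with a median of -0.11. Only 3 of these G2M genes were better detected, and their median was 0.03. Of 22 cholesterol synthesis genes 9 were lower and 1 higher (median -0.15), with Stard4 at -0.38 and Sqle at -0.31 in the authors' deposited table. Genes of energy metabolism lay near 0. Glycolysis genes had a median of 0.03 and genes of oxidative phosphorylation 0.01, with 2 higher and 3 lower of 19 and 10 higher and 7 lower of 66. Autophagy genes, the subject of the study, had a median of -0.05, close to that of all better-detected genes, with 4 of 38 higher and 5 lower. Of 27 FOXO and fasting targets 2 were higher and 9 lower: Sesn1, a sestrin, was at -0.32 and Cited2, a regulator of HSC quiescence, at 0.29 in the authors' deposited table.

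The authors' pathway table for cluster 1 gave a signed score and a log2 fold for 2922 gene sets. By its adjusted p 269 pathways were higher (9.21%) and 1834 lower (62.8%), where most genes also lay below 0. Reactome eukaryotic translation elongation had the highest score, 17.4, at a fold of 0.05, and 7 of the other 9 in the top 10, such as KEGG ribosome and the Reactome sets for starvation (0.03) and for GCN2 and amino acid deficiency (0.04), had folds of at most 0.05. Those sets are known to consist largely of ribosomal proteins. The exceptions in the top 10 were Reactome VLDL clearance (0.40), a small set that Vldlr belongs to, and the common pathway of fibrin clot formation (0.14). VLDL clearance was at 0.28 in cluster 0 and 0.63 in cluster 5, and at -0.69 and -0.59 in clusters 2 and 3. Vldlr likewise was high in clusters 0, 1 and 5 and low in clusters 2 and 3.

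At the other end of the authors' deposited table, WikiPathways mRNA processing had the lowest score, -23.5 at a fold of -0.09. Chromatin modifying enzymes (-22.1, fold -0.08), WikiPathways histone modifications (-20.3, fold -0.14), histone lysine methylation (-18.7, fold -0.11) and mRNA splicing (-17.9, fold -0.06) were among the 10 lowest. In cluster 4 histone modifications were at 0.12. Of 9 pathways named for rRNA 6 were lower and 1 higher: positive epigenetic regulation of rRNA expression was at -0.08, and nuclear and cytosolic rRNA modification at -0.04, while rRNA processing, a set that also holds ribosomal proteins, was at 0.01. Pathways named for mTOR were lower in 10 of 11 cases and higher in none, and those whose names hold insulin, insulin-like growth factor sets included, lower in 16 of 23 and higher in 2. Those named for glutathione were higher in 3 of 5 and lower in none. Read against 62.8% lower among all pathways, the shares for rRNA and for insulin are both close to the background.

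**Figure D5:**
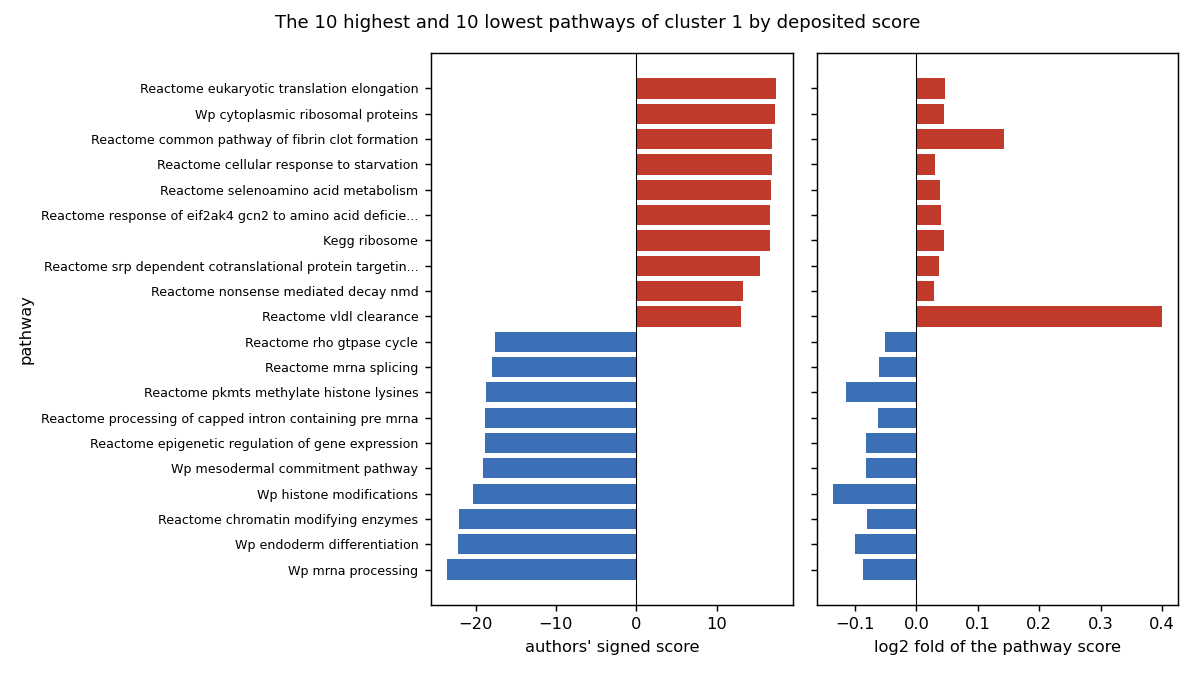
The 10 highest and 10 lowest pathways of cluster 1 by the authors' signed score (left axis) with the log2 fold of the pathway score (right axis), 1 bar per pathway from 0. Translation and ribosome sets fill most of the top with folds of at most 0.05, VLDL clearance stands out at 0.40, and mRNA processing and chromatin sets fill most of the bottom.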

How the data were processed

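Droplet single-cell RNA sequencing had been done on HSCs in 6 libraries, 1 per age and feeding condition. Per the submitters' processing notes the authors used Scanpy and the mm10 build; for the aligner, cell filters, doublet handling, clustering settings and test, the sources used here give nothing. The 22 deposited tables compare each of 11 clusters with all other cells, pooled over libraries. In the gene tables the authors' deposited values are log2 mean levels (which sum to 10000 counts on the linear scale), log2 fold changes and p-values over cells with their adjustment. The pathway tables hold the authors' deposited score, a signed statistic, with a log2 fold and p-values.

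Computed here, with Python 3.11.15, pandas 2.3.3, numpy 2.4.6 and scipy 1.17.1: cell numbers and depth equivalents from the p-values and undetected genes, levels per cluster, list medians and counts, and length classes from GENCODE M21. Levels rebuilt this way added up to 10051 instead of 10000 counts in cluster 1 and are approximate. A log2 fold under -10 was read as no count. The depth estimate takes each cluster to have the mean profile of all cells. The steps that infer cell numbers and depth were run on data simulated under their own assumptions. That run checks the calculation only and cannot show whether real clusters meet the assumptions. Because clusters were defined on these values and each condition is 1 library, no test was run; the p-values over cells served as a filter.

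Members and lists were chosen with earlier results of these data known, and 8 of the 45 gene lists after the values were seen. Named genes were those called higher, those called lower at or above the median level, the 5 markers, and up to 4 members of each list with the largest fold at or above the median level; other names, such as Prtn3, Rbm3, Set, Npm1 and the list members near 0, and the motifs and sequences, were chosen after their values were seen. Some genes that this rule names are not reported here. Promoters are from RefSeq (GRCm38.p6), gene positions from GENCODE. Alternatives were other fold and p thresholds, better-detected genes alone, centred folds, means in place of medians, members of no other list, and other measures of length.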

Additional observations from a re-analysis of the deposited data

How the results depend on the processing

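No paired analysis was possible because each group is 1 library and the deposited values are pooled. The count of genes called higher was 102 at a minimum log2 fold of 0.25, 2 at 1, 10 at an adjusted p under 0.001, 7 among better-detected genes and 632 with no minimum fold; that of genes called lower was 941, 273, 110, 3 and 2908. Pathways called higher numbered 159 at an adjusted p under 0.001 and 24 at a minimum fold of 0.1, and those called lower 223 at that fold. Beside clusters 0 and 2 to 5 alone, 15 of the 21 higher genes had their highest fold in cluster 1. The difference between the longest and shortest length class was -0.10 with the middle transcript of a gene, and the ribosomal protein median was 0.11 with folds centred on better-detected genes (a shift of -0.05 removed). Of 180 recomputed medians of 45 lists, 111 stayed within the limit used, 50 moved and 19 changed sign. Centring turned the medians of the unfolded protein response (0.010), NRF2 (0.044), heat shock (0.027), hypoxia (0.0024), mitochondrially encoded (0.020), autophagy (0.0014), lysosome (0.047), HSC ageing (0.014), inflammation (0.032), imprinted (0.039) and nuclear long non-coding RNA (0.028) lists. Means in place of medians turned NRF2 (0.044), heat shock (0.0061), lysosome (0.011) and myeloid priming (-0.016). Better-detected members alone turned G2M phase (0.032), inflammation (0.016) and imprinted genes (0.049), and members of no other list turned quiescence (-0.0046). Centring adds the same 0.05 to every gene, so a sign change under it shows only that a median lay close below 0. For the other settings the cause was not tested.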
